A study of Mus musculus with 14 samples.

Results

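A set of 10 genes of B cell progenitors was followed in bone marrow stem and progenitor cells of mice that express AML1-ETO, the fusion protein of a common form of acute myeloid leukaemia. They are Igll1, Vpreb1, Cd79a, Cd79b, Pou2af1, Ebf1, Pax5, Rag1, Rag2 and Dntt, chosen by symbol, and all 10 were found among the 54532 rows of the count table. Bulk RNA sequencing covered 14 libraries in 4 groups. These were 3 libraries of granulocyte-monocyte progenitors (GMPs) from AML1-ETO mice, 4 of GMPs from control mice, 3 of long-term haematopoietic stem cells (LT-HSCs) from AML1-ETO mice and 4 of LT-HSCs from control mice. All mice were C57BL/6. The AML1-ETO mice are labelled with the genotype Runx1-Runx1t1, which Mx1-Cre switches on, and the control mice with the genotype WT; whether these carry Mx1-Cre is not given in the sources used here. Mx1-Cre is driven by an interferon-responsive promoter that works in many blood cells and in other tissues. Poly(I:C), which sets off the interferon response, is listed for all 14 samples at 5 mg/kg in 4 doses, controls included. The labels give neither the markers used for sorting, nor the age or sex of the mice, nor whether each library is a mouse of its own; the p-values therefore speak of the spread between samples, which may be technical.

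The 10 genes act at successive steps of B cell formation. Ebf1 and Pax5 encode transcription factors that specify the B lineage and hold cells in it, and Pou2af1 encodes a coactivator of octamer-binding factors. Rag1 and Rag2 encode both parts of the recombinase that cuts immunoglobulin and T cell receptor genes, and Dntt encodes terminal transferase, which adds bases at the joints. Igll1 and Vpreb1 encode the surrogate light chain, which pairs with the first heavy chain in the pre-B cell receptor, and Cd79a and Cd79b encode the signalling chains of the pre-B and B cell receptors. Rag1, Rag2 and Dntt also serve T cell precursors, and Dntt is known to be on in early progenitors primed for the lymphoid lineages. In human leukaemia with this fusion the blasts often carry PAX5 and CD79A, although they are myeloid.

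The promoters of 6 genes are shown, picked by their results or letters. Igll1, Cd79a and Pou2af1 were called lower in AML1-ETO LT-HSCs, and Vpreb1 is the partner of Igll1 and its neighbour. Rag1 had the most RUNX letters, and Dntt had a positive fold change. Vpreb1, Rag1 and Dntt were not called there, and the promoters shown are no fair sample of the whole set. Each runs from 250 bases before to 50 after the RefSeq start on GRCm38.p6, 5′ to 3′ on the gene's strand. Capitals mark letters searched on both strands: CCCNNGGG for EBF factors, TGTGGT or TGCGGT for RUNX factors, CAGGTG or CAGCTG for E-box factors, and ATGCAAAT, the octamer. A match on the opposite strand appears as ACCACA or CACCTG.
Igll1 (chr16:16863936-16864235, minus strand): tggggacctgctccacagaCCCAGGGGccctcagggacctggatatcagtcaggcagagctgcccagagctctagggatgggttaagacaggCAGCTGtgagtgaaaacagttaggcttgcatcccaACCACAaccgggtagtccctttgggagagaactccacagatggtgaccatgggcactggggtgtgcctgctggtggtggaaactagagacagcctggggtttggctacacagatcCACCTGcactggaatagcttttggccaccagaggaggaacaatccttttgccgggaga
Vpreb1 (chr16:16869206-16869505, minus strand): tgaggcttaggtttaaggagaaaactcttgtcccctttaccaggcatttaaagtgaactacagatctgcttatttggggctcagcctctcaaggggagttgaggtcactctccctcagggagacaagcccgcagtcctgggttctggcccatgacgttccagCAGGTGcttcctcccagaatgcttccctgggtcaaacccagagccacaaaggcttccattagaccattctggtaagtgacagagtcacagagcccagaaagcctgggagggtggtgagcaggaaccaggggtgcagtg
Cd79a (chr7:24897247-24897546, plus strand): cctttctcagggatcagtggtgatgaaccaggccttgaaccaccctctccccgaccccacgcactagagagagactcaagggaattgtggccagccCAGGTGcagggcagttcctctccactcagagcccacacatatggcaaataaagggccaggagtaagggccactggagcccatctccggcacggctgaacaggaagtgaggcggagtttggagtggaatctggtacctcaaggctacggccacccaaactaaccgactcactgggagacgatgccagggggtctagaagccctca
Pou2af1 (chr9:51213440-51213739, plus strand): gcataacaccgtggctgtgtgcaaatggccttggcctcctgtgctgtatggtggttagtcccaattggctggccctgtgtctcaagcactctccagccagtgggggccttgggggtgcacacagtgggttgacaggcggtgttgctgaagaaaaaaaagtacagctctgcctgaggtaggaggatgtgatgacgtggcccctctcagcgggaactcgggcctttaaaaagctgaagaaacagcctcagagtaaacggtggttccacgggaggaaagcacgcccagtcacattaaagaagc
Rag1 (chr2:101649483-101649782, minus strand): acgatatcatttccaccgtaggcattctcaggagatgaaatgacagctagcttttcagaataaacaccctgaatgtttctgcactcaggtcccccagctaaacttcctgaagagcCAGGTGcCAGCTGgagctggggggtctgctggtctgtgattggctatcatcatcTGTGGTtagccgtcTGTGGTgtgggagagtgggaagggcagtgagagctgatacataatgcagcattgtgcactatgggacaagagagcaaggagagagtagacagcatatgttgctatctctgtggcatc
Dntt (chr19:41029025-41029324, plus strand): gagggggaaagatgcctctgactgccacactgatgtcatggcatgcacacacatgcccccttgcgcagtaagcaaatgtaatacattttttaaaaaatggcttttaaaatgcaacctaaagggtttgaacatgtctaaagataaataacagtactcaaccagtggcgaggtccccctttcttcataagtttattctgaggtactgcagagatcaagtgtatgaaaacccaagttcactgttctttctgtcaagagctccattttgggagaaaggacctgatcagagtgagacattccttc
RefSeq promoters were at hand for 9 of the 10 genes, with 10 windows in all, since Ebf1 had 2. EBF letters were in 1 of the 10 windows, that of Igll1, and in 13.7% of 32851 promoters of the same length. TGTGGT was in 3 windows, those of Igll1, Rag1 and Ebf1, and in 16.8% of all promoters. Rag1 held it at 81 and at 67 bases before the start site. CAGGTG was in 4 windows (Igll1, Vpreb1, Cd79a and Rag1), against 20.2% of all promoters, and CAGCTG in 2 (Igll1 and Rag1), against 16.3%. TGCGGT and the octamer were in none of the 10, against 6.45% and 1.74% of all promoters. The windows of Pou2af1, Dntt, Pax5 and Rag2 held none of these letters. Such matches describe letters in a window and not binding.

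Per the annotation of mm10, Igll1 (chr16:16860671-16863985) and Vpreb1 (chr16:16868403-16870843) lie 4.42 kb apart on the minus strand of chromosome 16. Rag1 (chr2:101638282-101649501, minus strand) and Rag2 (chr2:101624718-101632529, plus strand) lie 5.75 kb apart on chromosome 2. The other 6 genes are on chromosomes 4 (Pax5), 7 (Cd79a), 9 (Pou2af1), 11 (Cd79b and Ebf1) and 19 (Dntt). All 10 are protein-coding. Reads of Vpreb1 may be shared with Vpreb2, since their sequences were 97.4% identical over 759 aligned bases; Vpreb2 itself had 25 counts, all in 1 control LT-HSC library. Whether counting used strand is not given in the sources used here, and reads of genes with shared exons cannot be told apart. Exons of other genes shared 9.0% of the exon bases of Vpreb1 (Top3b), 1.4% and 7.2% of Pax5 (Gm12462 and 5730488B01Rik), and 1.2% and 6.1% of Rag1 and Rag2 (B230118H07Rik).

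Library totals ran from 13210952 to 19403864 counts. Levels are CPM, counts scaled to the TMM library size, on 1 scale over all 14 libraries. Runx1t1, the partner gene of the fusion, stood at 26.0 to 45.6 CPM in GMPs with AML1-ETO and 1.68 to 2.73 CPM in GMPs of control mice, and at 85.5 to 163 CPM in LT-HSCs with AML1-ETO and 0 to 18.1 CPM in LT-HSCs of control mice. The summed level of 12 GMP markers was 21730 to 36040 CPM in GMPs with AML1-ETO, 29010 to 33170 CPM in GMPs of control mice, 1654 to 1890 CPM in LT-HSCs with AML1-ETO and 132.3 to 504.8 CPM in LT-HSCs of control mice. The 12 LT-HSC markers summed to 60.9 to 829.4 CPM in GMPs with AML1-ETO, 75.7 to 86.4 CPM in GMPs of control mice, 1092 to 1536 CPM in LT-HSCs with AML1-ETO and 817.2 to 2021 CPM in LT-HSCs of control mice. Some libraries stood apart. AML1-ETO GMP replicate 3 had the 829.4 CPM of LT-HSC markers, against 101 and 60.9 CPM in its 2 partners. Control LT-HSC replicate 3 had the fewest genes with a count (12106) and no count of Procr, a surface marker of LT-HSCs. Control LT-HSC replicate 2 had 9.95% of its counts in immunoglobulin genes, against 1.83% to 2.68% in the other 3 control LT-HSC libraries.

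**Figure D1:**
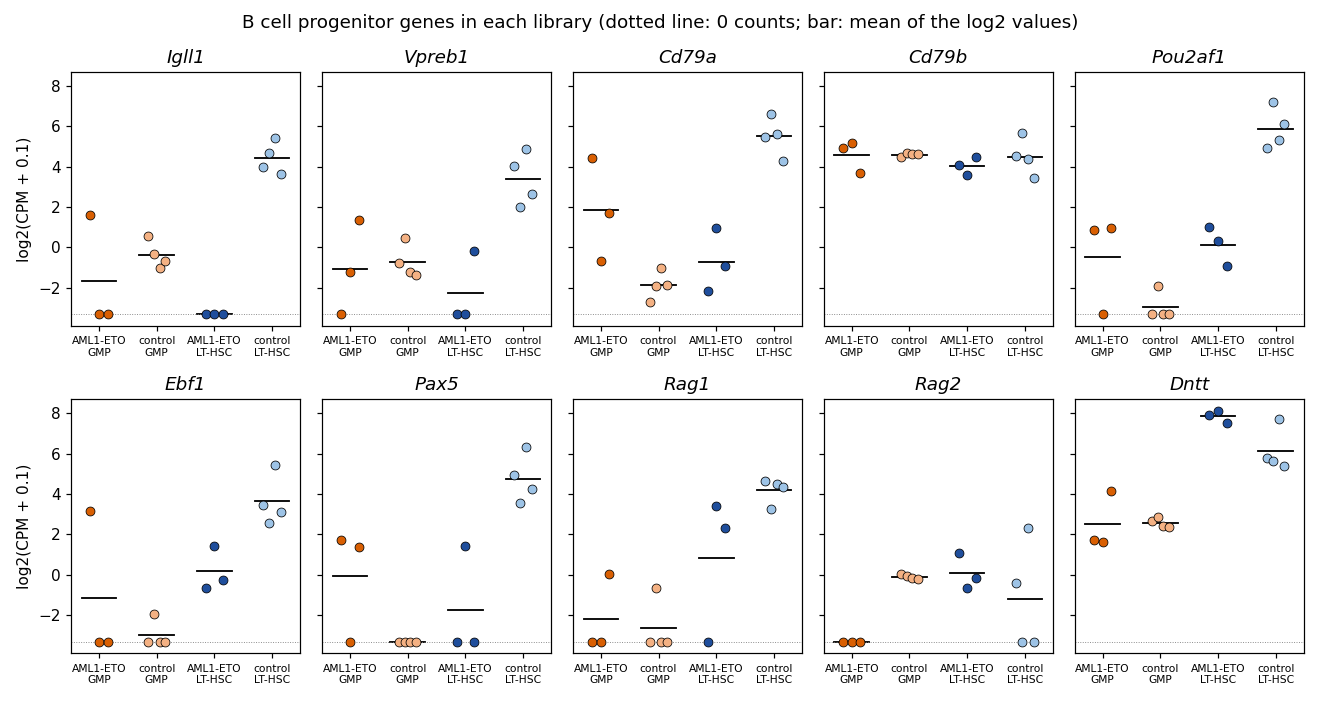
Level of each of the 10 genes in each library, as log2(CPM + 0.1), with the 4 groups on the horizontal axis, points for libraries and bars for the mean of the log2 values. Control LT-HSCs stand highest for 7 genes, while Cd79b is at a like level in all groups and Dntt is highest in AML1-ETO LT-HSCs, whose 3 libraries lie at 182.7 to 279.7 CPM.

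AML1-ETO was first compared with control within LT-HSCs, which asks how the fusion changes these genes in stem cells. Of the 10 genes, 3 were lower in AML1-ETO LT-HSCs, Igll1, Cd79a and Pou2af1, and none was higher (edgeR's quasi-likelihood test, adjusted p under 0.05 over 14589 genes). Over all genes tested, 4.69% were called lower and 7.59% higher. All AML1-ETO libraries lay below all control libraries for 6 of the 10, these 3 with Vpreb1, Ebf1 and Pax5, where 13.0% of all genes tested did, and above for none, where 15.5% did. These 6 passed the filter through the control libraries alone, which fixed the direction of any call, so the direction is no support. With no filter, Igll1, Cd79a and Pou2af1 were still called lower (adjusted p = 0.0014, 0.00439 and 0.00172, edgeR), and Vpreb1, Ebf1 and Pax5 were not. The median log2 fold change was −4.50 over the 10 genes and 0.03 over all genes. At an unadjusted p under 0.05, 6 of the 10 were lower and 1, Dntt, was higher, and DESeq2 called the same 6 lower and Dntt higher. Shares over all genes at an unadjusted p or by DESeq2 were not computed, here or in the comparisons below. Such counts therefore cannot be set against a background. In bulk samples, fewer cells that carry these transcripts and less RNA per cell cannot be told apart.

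Among the surrogate light chain genes, Igll1 had no count in any AML1-ETO LT-HSC library, and stood at 15.8, 25.6, 43.0 and 12.5 CPM in the control LT-HSC libraries. Taken against a floor of 3 counts over the AML1-ETO group, Igll1 was at least 373-fold lower (adjusted p = 0.00348, edgeR). With no count in AML1-ETO LT-HSCs, Igll1 could be called in no other direction. With no filter its adjusted p was 0.0014 (edgeR). Its partner Vpreb1 was at 0, 0 and 0.793 CPM in LT-HSCs with AML1-ETO, against 16.5, 3.95, 29.4 and 6.17 CPM in LT-HSCs of control mice. The groups did not overlap, yet the log2 fold change of Vpreb1, −5.59 ± 1.72 (SE), did not pass (adjusted p = 0.0718, edgeR). Of 1490 counts of Igll1 in control LT-HSCs and 881 of Vpreb1, the largest part of each was in replicate 3.

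The receptor's signalling chains had unlike values. Cd79a had 0.119, 1.84 and 0.427 CPM in LT-HSCs with AML1-ETO, against 44.0, 98.9, 49.7 and 19.6 CPM in LT-HSCs of control mice. It fell by 5.99 ± 0.97 on the log2 scale (adjusted p = 0.00786, edgeR). Cd79b had 17.0, 11.9 and 22.0 CPM in LT-HSCs with AML1-ETO, against 22.7, 50.2, 20.8 and 10.7 CPM in LT-HSCs of control mice. These ranges overlapped, with a log2 fold change of −0.52 ± 0.53 (adjusted p = 0.642, edgeR). On the scale of CPM per kb of exon, AML1-ETO LT-HSCs had a Cd79b level of 11.9 ± 3.54 and a Cd79a level of 0.546 ± 0.629 (SD, n = 3), and control LT-HSCs 18.2 ± 11.8 and 36.4 ± 22.8 (SD, n = 4).

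Of the factors that act on transcription, the coactivator gene Pou2af1 had 1.91, 1.15 and 0.427 CPM in LT-HSCs with AML1-ETO, against 29.8, 148.1, 40.1 and 68.9 CPM in LT-HSCs of control mice. It fell by 5.82 ± 0.80 on the log2 scale (adjusted p = 0.00431, edgeR). Ebf1 had 0.536, 2.53 and 0.732 CPM in LT-HSCs with AML1-ETO, against 11.0, 5.85, 43.4 and 8.48 CPM in LT-HSCs of control mice. Pax5 had 0, 2.53 and 0 CPM in LT-HSCs with AML1-ETO, against 31.0, 11.5, 80.7 and 18.5 CPM in LT-HSCs of control mice. Both factors stood lower in every AML1-ETO library than in any control library, with replicate 3 the highest control for each. Neither passed the test, with log2 fold changes of −3.66 ± 1.04 for Ebf1 (adjusted p = 0.0538, edgeR) and −5.33 ± 1.62 for Pax5 (adjusted p = 0.0681, edgeR).

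None of the recombination genes passed the test. Rag1 had 0, 10.5 and 4.88 CPM in LT-HSCs with AML1-ETO, against 24.6, 9.53, 22.7 and 20.2 CPM in LT-HSCs of control mice. The groups overlapped through 1 library each, and the log2 fold change was −1.83 ± 1.27 (adjusted p = 0.445, edgeR). Rag2 was low in both, with 2.03, 0.536 and 0.793 CPM in LT-HSCs with AML1-ETO, against 0.641, 0, 4.84 and 0 CPM in LT-HSCs of control mice, and a log2 fold change of −0.17 ± 2.01 (adjusted p = 0.980, edgeR). Dntt had 242.2, 279.7 and 182.7 CPM in LT-HSCs with AML1-ETO, against 55.0, 49.9, 206.6 and 41.9 CPM in LT-HSCs of control mice. Only control replicate 3 reached the AML1-ETO range. The log2 fold change of Dntt was 1.52 ± 0.54 (adjusted p = 0.109, edgeR), and 2.35 without control replicate 3, where it was called higher (adjusted p = 0.00139, edgeR). That omission took out the only control library in the AML1-ETO range, which favours a call in this direction, so it is no support. With all libraries kept, DESeq2 called Dntt higher, at 1.47 (adjusted p = 0.0264).

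**Figure D2:**
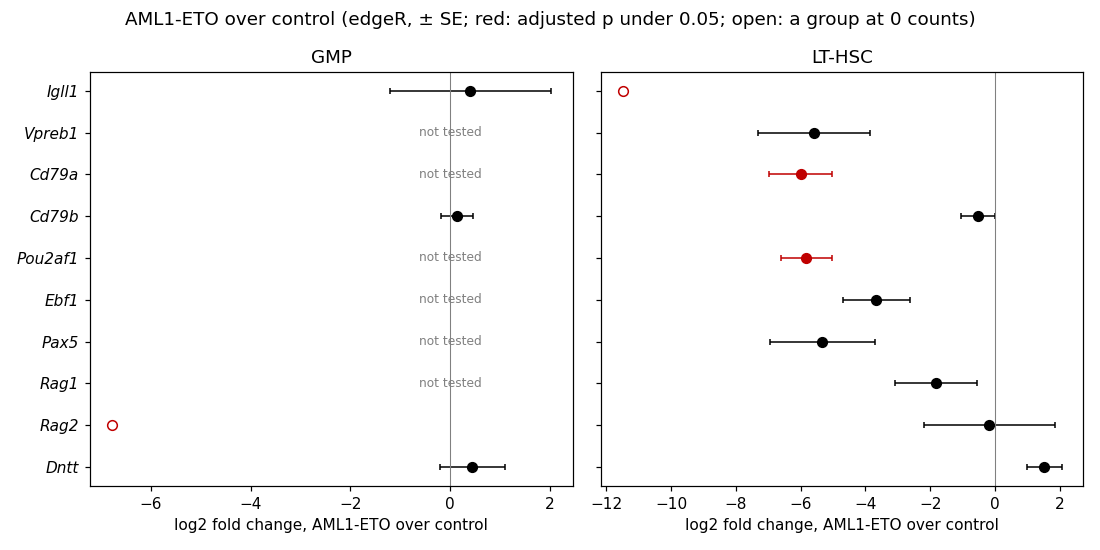
Log2 fold change of AML1-ETO over control for each gene in GMPs (left) and LT-HSCs (right), with SE from edgeR; red marks an adjusted p under 0.05 and open circles a gene with 0 counts in 1 group, whose fitted value is no bound and has no SE. Igll1, Cd79a and Pou2af1 are red in LT-HSCs, Rag2 is red in GMPs, and 6 genes were not tested in GMPs because of low counts.

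The calls for Igll1, Cd79a and Pou2af1 were also made under other scaling, no filter, DESeq2, a robust fit and a fit of all 14 libraries, and without any 1 library. Without control replicates 2 and 3 together, a setting chosen after the data were seen, they had adjusted p-values of 0.0160, 0.0292 and 0.0105 (edgeR).

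Markers of other lymphoid cells moved with these genes: 4 of 7 tested immunoglobulin constant genes, 4 of 12 plasma cell markers and 4 of 9 tested T cell markers fell, and none of the tested ones rose, also at an unadjusted p under 0.05. Immunoglobulin genes took 0.0904%, 0.0169% and 0.0363% of the counts in AML1-ETO LT-HSCs, against 2.19%, 9.95%, 1.83% and 2.68% in control LT-HSCs. The 12 plasma cell markers summed to 391.9 to 465.9 CPM in LT-HSCs with AML1-ETO and 648.3 to 2011 CPM in LT-HSCs of control mice, with none at 0 throughout either group. The 15 T cell markers summed to 45.3 to 67.3 CPM and to 165.4 to 977.6 CPM in the same groups. Of these 15, Ptcra was at 0 in all AML1-ETO LT-HSC libraries, and Cd3e, Cd3g, Cd8a and Trac, which define mature T cells, in all control LT-HSC libraries. These 4, too low to be tested, averaged 2.26, 0.522, 0.937 and 0.904 CPM in LT-HSCs with AML1-ETO, each above every control library. In these sums the highest control library was replicate 2 for plasma cells and replicate 3 for T cells. The 10 genes divided between the same 2 libraries: among the 4 control LT-HSC libraries, replicate 3 was highest for 6 (Igll1, Vpreb1, Ebf1, Pax5, Rag2 and Dntt), replicate 2 for 3 (Cd79a, Cd79b and Pou2af1) and replicate 1 for Rag1. Named markers that fell were Sdc1 (−4.71 ± 0.83), the plasma cell syndecan, Mzb1 (−5.36 ± 1.05), a chaperone of antibody-secreting cells, and Tcf7 (−6.80 ± 0.98) and Trbc1 (−6.51 ± 1.38), genes of T cells, all on the log2 scale. Of 9 tested NK cell markers Il2rb fell (−2.95 ± 0.43) and Prf1, the gene of perforin, rose: it averaged 30.6 ± 26.0 CPM in LT-HSCs with AML1-ETO and had no count in control LT-HSCs, at least 630.6-fold higher (adjusted p = 0.00728, edgeR). Prf1 passed the filter through the AML1-ETO libraries alone, which fixed the direction of any call, so its call is no support. NK cell markers summed to 49.8 to 112.3 CPM in LT-HSCs with AML1-ETO and 64.8 to 136.9 CPM in LT-HSCs of control mice. Plasmacytoid dendritic cell markers summed to 326.0 to 462.0 CPM in LT-HSCs with AML1-ETO and 140.9 to 196.0 CPM in LT-HSCs of control mice. The part of such cells in the levels of the 10 genes was not tested.

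**Figure D3:**
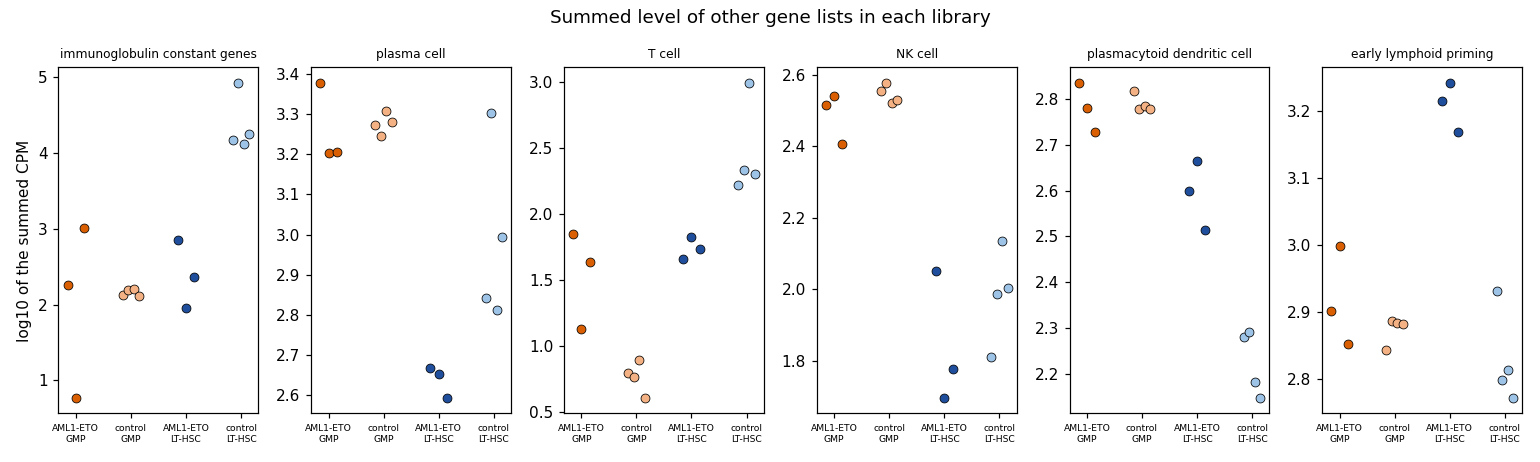
Summed level of 6 other gene lists in each library, on a log10 scale of CPM with its own range in each panel, by group. Immunoglobulin constant genes sum to 91.3 to 706.6 CPM in LT-HSCs with AML1-ETO and 13020 to 83710 CPM in LT-HSCs of control mice, and genes of early lymphoid priming stand highest in AML1-ETO LT-HSCs.

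Other genes of the B cell pathway went both ways. Of 18 genes of the B cell surface and receptor signalling, 14 were tested, of which 1 was lower and 4 were higher. The lower was Blnk, the adaptor downstream of the receptor (0.863 ± 1.19 CPM in LT-HSCs with AML1-ETO and 33.9 ± 34.7 CPM in LT-HSCs of control mice, adjusted p = 0.0445, edgeR). The 4 higher were the kinase genes Lyn (1.73 ± 0.17), Syk (1.28) and Btk (1.0) and the tetraspanin gene Cd37 (1.66 ± 0.20), all of which are also used in myeloid cells; the values are log2 fold changes. The median log2 fold change of this list was −0.20.

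Of 18 transcription factors of the B lineage, 17 were tested, and 4 were lower and 1 was higher. At an unadjusted p under 0.05, 6 were lower and 5 higher. Without overlap, 6 lay lower, as 13.0% of all genes tested did, and 5 higher, as 15.5% did. The lower ones were Irf4 (−7.67 ± 2.11), which acts in pre-B and plasma cells, Ikzf3 (−3.76 ± 1.04), the gene of Aiolos, Mef2c (−1.68 ± 0.32) and Bcl11a (−1.59). Erg, a factor of stem cells, was higher (1.30). The median of the list was 0.08.

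Genes of early lymphoid priming went both ways: 4 of 11 rose and 2 fell, with a median of 1.08. Flt3, the receptor of multipotent and lymphoid progenitors, stood at 70.0 ± 27.1 CPM in LT-HSCs with AML1-ETO and 14.9 ± 4.42 CPM in LT-HSCs of control mice (adjusted p = 0.00682, edgeR). Satb1, a chromatin organiser of lymphoid progenitors, stood at 177.7 ± 36.8 CPM and 39.4 ± 22.1 CPM in the same groups (adjusted p = 0.00906, edgeR). Il2rg (2.19) and Jak3 (1.52), the shared cytokine receptor chain and its kinase, were the other 2 that rose. Il7r, the interleukin receptor chain that early B cells need, stood at 2.08 ± 0.69 CPM in LT-HSCs with AML1-ETO and 36.9 ± 23.6 CPM in LT-HSCs of control mice (adjusted p = 0.00887, edgeR). Ly6d, which marks lymphoid progenitors set on the B lineage, stood at 0.298 ± 0.516 CPM and 33.7 ± 26.9 CPM (adjusted p = 0.0205, edgeR). Of 12 genes that act with the recombinase or in DNA joining, Xrcc5 (−1.87 ± 0.45) and Hmgb2 (−1.47 ± 0.22) fell and none rose. None of the 12 was higher at an unadjusted p under 0.05 either.

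**Figure D4:**
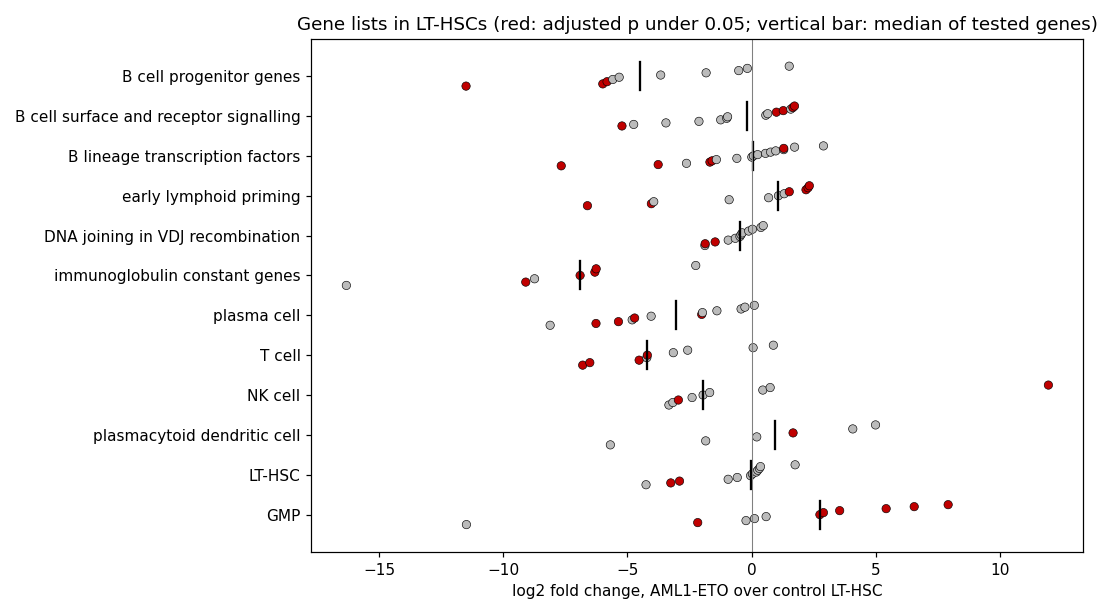
Log2 fold change of AML1-ETO over control LT-HSCs for each tested gene of 12 lists; red marks an adjusted p under 0.05 (edgeR) and vertical bars the median of each list, with fitted values shown also for genes at 0 counts in 1 group. The 10 B cell progenitor genes have a median of −4.50 and the early lymphoid priming list one of 1.08.

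Within GMPs the same comparison asks how the fusion changes these genes in myeloid progenitors, where the B lineage programme is normally off. Only 4 of the 10 genes (Igll1, Cd79b, Rag2 and Dntt) held enough counts to be tested. Of these Rag2 was lower in AML1-ETO GMPs and none was higher, by edgeR; over 13981 genes tested, 3.96% were lower and 5.47% higher. None of the 4 was higher at an unadjusted p under 0.05 or called higher by DESeq2, which gave no p for Igll1. With no filter, 4 of the other 6 were higher at an unadjusted p under 0.05, Cd79a (adjusted p = 0.0501), Pax5 (adjusted p = 0.104), Ebf1 (adjusted p = 0.184) and Pou2af1 (adjusted p = 0.193, edgeR), and none was called. Rag2 had no count in any AML1-ETO GMP library, and 0.908, 0.860, 0.778 and 0.755 CPM, or 12 to 17 counts each, in the control GMP libraries. Rag2 thus passed the filter through the control libraries alone, which fixed the direction of any call, so its call is no support. With no filter Rag2 was not called (adjusted p = 0.068, edgeR). It was at least 12.9-fold lower (adjusted p = 0.0267, edgeR), without overlap, as 16.1% of genes tested were. That call was lost without any 1 of the 4 control GMP libraries, with adjusted p-values of 0.0933 to 0.0998 (edgeR), while Rag2 stayed at 0 counts in AML1-ETO GMPs and its fitted log2 value, which is no bound, at −6.83 to −6.71 (−6.79 with all libraries).

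Cd79a stood at 21.7, 0.522 and 3.18 CPM in GMPs with AML1-ETO, against 0.0534, 0.161, 0.389 and 0.174 CPM in GMPs of control mice. The groups did not overlap, with AML1-ETO on top, as for 10.6% of all genes tested, but 331 of the 391 counts were in replicate 1. Filtered out of the main test, Cd79a had a log2 fold change of 5.41 without the filter (adjusted p = 0.0501, edgeR) and 5.42 in the fit of all 14 libraries (adjusted p = 0.0205, edgeR). Ebf1 had 8.66, 0 and 0 CPM in GMPs with AML1-ETO, against 0, 0.161, 0 and 0 CPM in GMPs of control mice. Its ratio of 65.6 (95% exact counting interval 22.0 to 322) rests on 132 counts of AML1-ETO replicate 1 and 3 counts of control replicate 2. Pax5 had 3.22, 0 and 2.51 CPM in GMPs with AML1-ETO and no count in any control GMP library, at least 44.5-fold higher in the means. Pou2af1 had 1.71, 0 and 1.83 CPM in GMPs with AML1-ETO, against 0, 0.161, 0 and 0 CPM in GMPs of control mice, a ratio of 27.8 (95% exact counting interval 9.05 to 139). Intervals and floors cover counting error only.

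AML1-ETO GMP replicate 2 was at 0 for 6 genes (Igll1, Pou2af1, Ebf1, Pax5, Rag1 and Rag2), and replicates 1 and 3 carried most of the counts. The 8 genes other than Cd79b and Dntt, a sum chosen after their values were seen, came to 38.3, 0.849 and 10.9 CPM in GMPs with AML1-ETO, 1.74 to 3.87 CPM in GMPs of control mice, 4.59, 19.1 and 8.05 CPM in LT-HSCs with AML1-ETO and 154.4 to 313.8 CPM in LT-HSCs of control mice. Without replicate 2, Cd79a, Pou2af1 and Pax5 passed the filter, through the AML1-ETO libraries alone, and were called higher; leaving out that library at or near 0 also fixes the direction, so these calls are no support. Without replicate 1, Igll1, then without any count in AML1-ETO GMPs, was called lower (adjusted p = 0.0342, edgeR). Igll1 then passed the filter through the control libraries alone, so this call is no support either. The T cell markers, of which 1 of 4 tested (Tcf7, 2.34 on the log2 scale) was called higher, summed to 70.5, 13.5 and 43.2 CPM in GMPs with AML1-ETO, against 4.06 to 7.91 CPM in GMPs of control mice, with 2 of the 15 (Cd3g and Ptcra) at 0 throughout AML1-ETO GMPs and 8, Cd3e, Cd8a and Trac among them, throughout control GMPs. Immunoglobulin constant genes summed to 179.9, 5.88 and 1039 CPM in GMPs with AML1-ETO and 129.8 to 160.8 CPM in GMPs of control mice. Of 11 tested LT-HSC markers, 4 were called higher in AML1-ETO GMPs and none lower, also at an unadjusted p under 0.05, with a median log2 fold change of 3.55: Slamf1 (6.54 ± 1.40), Tek (5.32 ± 0.88), Fgd5 (4.88 ± 1.04) and Ly6a (3.55 ± 0.91). Slamf1 and Fgd5, with 18 and 8 counts in control GMPs, could not have passed the filter through the control libraries. The direction of their calls was fixed, so the calls of Slamf1 and Fgd5 are no support. The part of other cells in these values was not tested.

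The surrogate light chain genes were detected in GMPs. Igll1 had 2.95, 0 and 0 CPM in GMPs with AML1-ETO, against 1.39, 0.698, 0.389 and 0.523 CPM in GMPs of control mice, with a log2 fold change of 0.40 ± 1.61 (adjusted p = 0.915, edgeR). Vpreb1 had 0, 0.3265 and 2.445 CPM in GMPs with AML1-ETO, against 0.481, 1.29, 0.324 and 0.290 CPM in GMPs of control mice. Every control library held 5 or more counts of each, while Igll1 was in 1 and Vpreb1 in 2 of the 3 AML1-ETO libraries. Rag1 had 0, 0 and 0.917 CPM in GMPs with AML1-ETO, against 0, 0.537, 0 and 0 CPM in GMPs of control mice.

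Cd79b, by contrast, was present in every GMP library. It had 30.1, 36.2 and 12.6 CPM in GMPs with AML1-ETO, against 22.3, 25.1, 24.4 and 24.6 CPM in GMPs of control mice, with a log2 fold change of 0.14 ± 0.33 (adjusted p = 0.843, edgeR). Dntt had 3.22, 2.94 and 17.5 CPM in GMPs with AML1-ETO, against 6.14, 7.04, 5.18 and 5.05 CPM in GMPs of control mice, and a log2 fold change of 0.45 ± 0.66 (adjusted p = 0.744, edgeR). AML1-ETO replicate 3, the library with the most LT-HSC marker transcripts, was the highest for Dntt.

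Of the other lists in GMPs, B lineage factors had 2 of 15 tested genes higher and none lower: Bach2 (2.79 ± 0.54), a repressor used by B cells, and Id2 (2.66 ± 0.64), an inhibitor of E proteins. By unadjusted p, 1 was lower. Cd38 (5.83 ± 1.36) was the 1 surface gene of 8 tested that was higher, with none lower, also at an unadjusted p under 0.05. With 12 counts in control GMPs, Cd38 could not have passed the filter through the control libraries, so its call is no support. In the priming list Il2rg (1.24 ± 0.14) was the 1 of 9 higher, with none lower after adjustment and 1 before. These values are log2 fold changes from edgeR, and DESeq2 counts for these lists were not computed.

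The difference between the effects in the 2 cell types was tested itself, in 1 fit of all 14 libraries. Igll1, Cd79a, Pou2af1 and Pax5, 4 of the 10 genes, had a more positive AML1-ETO effect in GMPs than in LT-HSCs, where 3.43% of 16116 genes were called in that direction and 2.91% in the other. None of the 10 was called in the other direction by edgeR or DESeq2, and 1, Rag2, had an unadjusted p under 0.05. Control GMPs held 13 counts of Cd79a, 3 of Pou2af1 and 0 of Pax5, so a fall in GMPs could hardly show. For these genes a fall in LT-HSCs alone gives a positive difference, so the direction is no support for a rise in GMPs. The difference was 11.5 ± 1.74 log2 units for Cd79a (adjusted p = 0.00237, edgeR) and 10.5 ± 1.62 for Pou2af1 (adjusted p = 0.00262, edgeR). Both sizes include a GMP part that was filtered out of the fit within GMPs. In AML1-ETO GMPs that part rests on 391 counts of Cd79a, 331 of them in replicate 1, and on 56 counts of Pou2af1. Both sizes are therefore uncertain. Igll1 (adjusted p = 0.0189) and Pax5 (adjusted p = 0.0260) each rest on a group with 0 counts, so their fitted sizes are no measure, and Ebf1 just missed the threshold (9.63 ± 2.73, adjusted p = 0.0515, edgeR). Without AML1-ETO GMP replicate 1 the adjusted p of Igll1 was 1.0, and without AML1-ETO LT-HSC replicate 1 or 2 it was 0.0516 and 0.0608. Pax5 lost its call without AML1-ETO LT-HSC replicate 1 or 3 (0.0552 and 0.0523).

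Across the differentiation step in control mice, 8 of the 10 genes were lower in GMPs than in LT-HSCs and none was higher (edgeR, over 16116 genes, of which 10.6% were lower and 14% higher). No gene of the 10 was higher at an unadjusted p under 0.05 or by DESeq2. All 8 had GMP libraries below every LT-HSC library, as 11.4% of genes tested did, and none lay above, where 20.8% did. Control GMPs and control LT-HSCs are the same libraries that served as controls above, so these values are not separate evidence on the LT-HSC levels. Immunoglobulin constant genes summed to 13020 to 83710 CPM in these LT-HSCs and 129.8 to 160.8 CPM in these GMPs. The part of other cells in the LT-HSC levels was not tested, so a loss within the differentiating cells is not shown. Pou2af1 had a ratio of 0.000615 (95% exact counting interval 0.000127 to 0.00180), and Ebf1 one of 0.00250 (0.000514 to 0.00732). Pax5, at 0 counts in control GMPs and 2208 in control LT-HSCs, was at least 827-fold lower (adjusted p = 0.00456, edgeR). Its 0 counts in control GMPs left only that direction for a call, and with no filter its adjusted p was 0.00211 (edgeR). The log2 fold change was −8.07 ± 1.24 for Cd79a (adjusted p = 0.000415, edgeR) and −3.91 ± 0.63 for Dntt (adjusted p = 0.000541, edgeR).

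For the surrogate light chain genes and Rag1 the log2 fold change was −5.0 ± 1.40 for Igll1 (adjusted p = 0.0217, edgeR), −4.53 ± 1.56 for Vpreb1 (adjusted p = 0.0472, edgeR) and −7.05 ± 1.95 for Rag1 (adjusted p = 0.0174, edgeR). Without control LT-HSC replicates 2 and 3 together, a setting chosen after the data were seen, Igll1 (−4.21, adjusted p = 0.0849, edgeR) and Vpreb1 (−4.22, adjusted p = 0.0830, edgeR) lost their calls and 6 genes were called. Igll1 was also not called without control GMP replicate 2, 3 or 4, with fold changes of −4.96 to −4.79 and adjusted p-values of 0.0626 to 0.0684 (edgeR). Rag1 was not called without control GMP replicate 1, 3 or 4, with fold changes of −6.68 to −6.66 and adjusted p-values of 0.0512 to 0.0531 (edgeR). Vpreb1 was not called without any 1 control GMP library (adjusted p = 0.0716 to 0.123, edgeR), without control LT-HSC replicate 1, 3 or 4 (0.0506 to 0.0824) and without AML1-ETO GMP replicate 2 (0.05), with fold changes of −5.23 to −3.88. With no filter Vpreb1 was not called either (adjusted p = 0.0592, edgeR). In the main test the 2 genes not called were Cd79b (−0.12 ± 0.43, adjusted p = 0.889, edgeR) and Rag2 (−0.73 ± 1.59, adjusted p = 0.800, edgeR). The recombinase genes thus stood apart in level: in control GMPs Rag1 had 10 counts, all in 1 library, while Rag2 had 58, in all 4. In control LT-HSCs, Rag1 had 1207 counts in all 4 libraries and Rag2 had 85, in 2.

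In AML1-ETO mice the step looked different. Only Dntt was lower in GMPs (−4.89 ± 0.75, adjusted p = 0.000409, edgeR), where 9.15% of all genes were, and Igll1 and Cd79a were higher, where 12.6% were. The GMP libraries of Dntt and Rag2 lay below all LT-HSC libraries, as for 20.7% of genes, and those of none lay above, as for 21.1%. Dntt stood at 7.88 ± 8.32 CPM in GMPs with AML1-ETO and 234.9 ± 49.0 CPM in LT-HSCs with AML1-ETO (SD, n = 3 each). Cd79a stood at 8.47 ± 11.6 CPM in GMPs with AML1-ETO and 0.795 ± 0.917 CPM in LT-HSCs with AML1-ETO, with overlap (3.44 ± 1.16, adjusted p = 0.0473, edgeR). Igll1, with 45 counts in 1 AML1-ETO GMP library and none in AML1-ETO LT-HSCs, was at least 15.2-fold higher in the means (adjusted p = 0.0414, edgeR). Both calls were lost without AML1-ETO GMP replicate 1 (adjusted p = 0.436 for Cd79a and 1.0 for Igll1), and under several other omissions. Pou2af1 was at 1.18 ± 1.02 CPM in GMPs with AML1-ETO and 1.16 ± 0.74 CPM in LT-HSCs with AML1-ETO (0.03 ± 0.98, adjusted p = 1.0, edgeR).

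**Figure D5:**
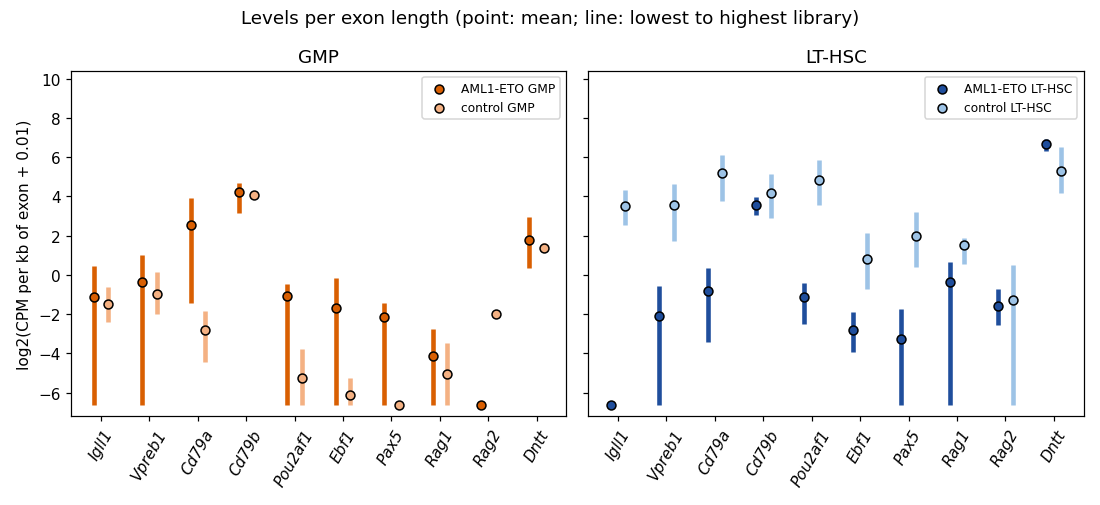
Level of each gene per kb of exon, as log2(CPM per kb + 0.01), in GMPs (left) and LT-HSCs (right), with the mean as a point and the lowest to highest library as a line. By the mean, Dntt, Cd79a and Pou2af1 lead in control LT-HSCs (38.6, 36.4 and 28.1 CPM per kb), whereas only Dntt (102) and Cd79b (11.9) have means over 1 CPM per kb in AML1-ETO LT-HSCs. The highest AML1-ETO LT-HSC library reaches 1.59 for Rag1 and 1.26 for Cd79a.

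The order of the genes by level per exon length also differed between groups. In AML1-ETO GMPs it was Cd79b (18.4 ± 8.57 CPM per kb), Cd79a (5.82 ± 7.93) and Dntt (3.44 ± 3.63), with the other 7 between 0 and 0.771. In control GMPs Cd79b (16.8 ± 0.845) and Dntt (2.55 ± 0.404) were followed by Vpreb1 (0.497 ± 0.391), and Pax5 was at 0. In AML1-ETO LT-HSCs Dntt (102 ± 21.3) and Cd79b (11.9 ± 3.54) stood above the other 8, which had 0 to 0.776 CPM per kb. In control LT-HSCs Dntt (38.6 ± 34.5), Cd79a (36.4 ± 22.8), Pou2af1 (28.1 ± 21.0) and Cd79b (18.2 ± 11.8) came first, then Vpreb1 (11.7 ± 9.69) and Igll1 (11.2 ± 6.34). Pax5 (4.00 ± 3.53), Rag1 (2.91 ± 1.02), Ebf1 (1.76 ± 1.80) and Rag2 (0.400 ± 0.681) followed. The ranges of neighbours in these orders overlapped in AML1-ETO GMPs and control LT-HSCs. In AML1-ETO LT-HSCs Dntt stood clear of Cd79b and Cd79b of Rag1, the third in level, and in control GMPs Cd79b stood clear of Dntt and Dntt of Vpreb1.

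As a description over the 14 libraries, which fall into 4 groups and share their depth and scaling within a library, each gene's log2 CPM was set against the mean of the other 9. Pearson's r was 0.91 for Pou2af1 and Pax5, 0.88 for Ebf1, 0.85 for Cd79a, 0.83 for Rag1, 0.75 for Igll1 and 0.71 for Vpreb1. It was 0.48 for Dntt, −0.03 for Rag2 and −0.10 for Cd79b. Of 16106 other genes, those most like the mean of the 10 included Lhcgr (0.944), Tcrg-C1 (0.936), Chic1 (0.936) and Tnni1 (0.932).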

How the data were processed

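Bulk RNA of 14 bone marrow samples was sequenced. Libraries used SMART-Seq and SMARTer Stranded chemistry for small inputs, per the labels' protocols, which do not say which samples got which. The deposited values are raw counts in 1 table with a row for each symbol, whole and not normalised; HISAT2 2.0.5, featureCounts 1.5.0-p3 and mm10 are named per the submitters' processing notes. Of 54532 rows, 105 repeat a symbol and 27 carry a date in place of one; each of the 10 genes had 1 row. Totals of 13210952 to 19403864 counts were reached per library.

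Counts were filtered with filterByExpr, scaled by TMM and tested with the quasi-likelihood F test of edgeR 4.0.16 in R 4.3.3, two-sided; p-values were adjusted by Benjamini-Hochberg over every gene tested, with calls at 0.05. Fits within a cell type used 7 libraries (5 residual degrees of freedom); the others used all 14 (10). Members, lists and tests were chosen with earlier results of these data known. Named genes were the 10, up to 3 called genes of each list by size that averaged 20 counts or more, and the 6 most alike in Pearson's r of log2 CPM (prior count 2), of which some are not reported here; further called genes were named to complete small counts, after their values were seen. Other scalings, no filter, DESeq2 1.42.0, robust fits, a replicate block and omission of libraries were tried. Gene positions and exon lengths came from GENCODE M21. Scripts were tested on simulated data.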

Additional observations from a re-analysis of the deposited data

Results flagged for a closer look

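In groups of 4 libraries, 1 library lay far from the other 3 for 6 values, by Dixon's criterion. Chance alone meets it in about 1 in 20 groups of normally distributed values, and CPM values were not shown to be such. Control LT-HSC replicate 3 stood apart for Ebf1 at 43.4 CPM, for Rag2 at 4.84 CPM and for Dntt at 207 CPM. Control GMP replicate 2 stood apart for Pou2af1 at 0.161 CPM, for Ebf1 at 0.161 CPM and for Rag1 at 0.537 CPM, where the other 3 libraries had no counts; any count meets the criterion then, so these 3 values say no more than that 1 library held 3, 3 and 10 counts. Control LT-HSC replicate 3 also held the highest sum of T cell markers in that group, 977.6 CPM, and no count of Procr; their part was not tested.

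The effect of AML1-ETO in GMPs minus that in LT-HSCs passed the test of the difference for 4 genes, with fitted values on the log2 scale of 11.99 for Igll1, 11.5 for Cd79a, 10.5 for Pou2af1 and 13.36 for Pax5. Those of Igll1 and Pax5 each involve a group at 0 counts and are not a measure of size. Those of Cd79a and Pou2af1 involve control GMPs with 13 and 3 counts, so their sizes are uncertain. For Cd79a, Pou2af1 and Pax5 a fall in GMPs could hardly show, so the direction is no support for a rise there.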

How the results depend on the processing

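The number of the 10 genes called depended on the setting. In LT-HSCs, 3 were lower and none higher; DESeq2 gave 6 and 1, upper-quartile factors, the robust fit and the fit of all 14 libraries 4 and 0, and omission of 1 library gave 3 to 4 and 0 to 1, the 1 being Dntt without control replicate 3. Without control replicates 2 and 3 together, chosen after the data were seen, 3 were lower and 1 was higher. In GMPs, 1 was lower and none higher, against 0 lower with no filter, 0 lower and 1 higher in the fit of all 14 libraries, and 0 to 2 lower and 0 to 3 higher without 1 library. For the difference of effects 4 were called, against 6 by DESeq2 (with Vpreb1 and Ebf1), 5 with the robust fit, and 2 to 5 without 1 library. In control mice 8 were lower in GMPs, and 5 to 8 without 1 library. With no filter Vpreb1 lost its call there (adjusted p = 0.0592, edgeR). In AML1-ETO mice 2 were higher in GMPs, against 1 with DESeq2's size factors, with upper-quartile factors or with no filter, 0 with that genotype alone, and 0 to 2 without 1 library; 1 was lower, against 2 by DESeq2 and 1 to 2 without 1 library. The cause of these changes was not tested.

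Signs turned only for values that were not called in the main test, except that Igll1 in AML1-ETO mice came to 0 without AML1-ETO GMP replicate 1 (0 to 7.58 without 1 library). For Pou2af1 in GMPs against LT-HSCs of AML1-ETO mice (0.03), values were −0.09 with DESeq2's size factors and by DESeq2, −0.10 with upper-quartile factors, −0.01 with that genotype alone, and −0.36, −0.32 and −0.43 without AML1-ETO LT-HSC replicate 3, GMP replicate 1 and GMP replicate 3 (up to 0.62 without 1 library). For Rag2 in LT-HSCs (−0.17) they were 0.17, 0.06 and 2.40 without AML1-ETO replicate 2, AML1-ETO replicate 3 and control replicate 3, with −0.93 the lowest, and 1.84 without control replicates 2 and 3 together, where Cd79b had 0.10. In GMPs, Igll1 had −6.68 without AML1-ETO replicate 1, Cd79b −0.17 without replicate 2 and Dntt −0.92 without replicate 3, with 0.98, 0.47 and 0.83 the highest. In control mice Cd79b had −0.39 to 0.41 without 1 library (0.41 without LT-HSC replicate 2) and 0.54 without replicates 2 and 3, and Rag2 had −1.15 to 1.89 (1.89 without replicate 3) and 1.35 without both. In AML1-ETO mice Ebf1 had −7.35 to 2.17 (−7.35 without GMP replicate 1, adjusted p = 0.0398, edgeR) and Vpreb1 −0.68 to 6.91 (−0.68 without GMP replicate 3). The difference of effects for Rag1 ran from −2.31, without that library, to 7.24.

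Same-numbered deviations correlated at 0.09, 0.16 and 0.11 between GMPs and LT-HSCs of AML1-ETO mice, and at −0.08 to 0.04 between other groups. In AML1-ETO mice they passed 0.1 for replicates 2 and 3 but not for replicate 1. The numbers were not taken to pair samples, though these values do not settle it. Whether same-numbered libraries share a mouse is not given in the sources used here. With a replicate block, 3 genes were lower in LT-HSCs, 0 in GMPs and 7 in GMPs of control mice; the difference of effects kept 2 and AML1-ETO mice 0 higher and 1 lower. Under that replicate block Rag2 had 1.41 in LT-HSCs and 1.30 in control mice, Cd79b 0.06 in control mice, and Igll1 −2.97 and Dntt −0.18 in GMPs.

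Another scaling shifted the median over all genes by over 0.1 (log2), to −0.12 (control mice, DESeq2's size factors) and to −0.10 (LT-HSCs) and −0.11 (AML1-ETO mice) with upper-quartile factors. All genes higher and lower were then 1698 and 2087 in control mice, in place of 2249 and 1703; 912 and 853 in LT-HSCs, in place of 1107 and 684; and 1670 and 1770 in AML1-ETO mice, in place of 2031 and 1474. Of the 10 genes, only Pou2af1 in AML1-ETO mice changed direction with scaling. Levels under 1 CPM rest on fewer than 20 counts a library and small differences there were not detectable.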
